A study of Mus musculus with 8 samples.

Results

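The 44 genes described here encode proteins of the lysosome and of autophagy, and they were chosen by name for what their proteins do, with earlier results of these data known. The list holds 12 hydrolases and hydrolase activators, 9 membrane proteins and lipid transporters, 13 subunits and accessory proteins of the V-ATPase, 6 autophagy proteins and 4 subunits of the Ragulator. All 44 had reads, out of 13120 genes with mRNA reads in the series, and 42 had 30 or more reads over all libraries. Glb1 and Hexa had fewer. The cells were P19, a mouse embryonal carcinoma line that grows as undifferentiated stem cells and was labelled wild type in every group. They were kept for 24 h or 48 h in 10 µM MHY1485 (MHY), an activator of mTOR, or in a matching amount of its solvent DMSO, with medium and compound renewed daily. Poly(A) RNA was sequenced directly on nanopores, so that each read gives both the transcript of a single RNA molecule and an estimate of its poly(A) tail in nucleotides (nt). There were 2 libraries in each of the 4 groups, 8 libraries in all. Libraries are called here by the numbers in the deposited table, which are names and not hours. At 24 h these are DMSO 21, DMSO 23, MHY 21 and MHY 23, and at 48 h they are DMSO 24, DMSO 25, MHY 24 and MHY 25. The design asks whether mRNAs of a pathway that sits next to mTOR in the cell differed in number or in tail length between MHY and DMSO at each time.

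Lysosomes are acidic organelles in which hydrolases break down proteins, lipids and glycans. The V-ATPase pumps the protons that keep them acidic, and autophagy delivers cytoplasmic cargo to them inside membrane vesicles. The surface of the lysosome is also where the kinase complex mTORC1 is switched on, since the Ragulator anchors the Rag GTPases that recruit it. Active mTORC1 phosphorylates the transcription factor TFEB and its relative TFE3 and holds them in the cytoplasm. When they are free to enter the nucleus they bind short sites built around the letters CACGTG and raise the transcription of many lysosomal and autophagy genes. MHY1485 is known both as an activator of mTOR and as a compound that blocks the fusion of autophagosomes with lysosomes.

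Many lysosomal genes are known targets of TFEB, so the letters it reads are shown first. RefSeq promoter windows of mouse assembly GRCm38.p6 (mm10), which run from 250 bases before to 50 bases after a gene's start, were given for 37 of the 44 genes. Map1lc3a, Atp6v1b2, Atp6v1h, Npc1, Ctsb, Atp6v1g1 and Laptm4b were not among them. CACGTG, a palindrome that reads alike on both strands, was present in the windows of 14 of the 37 genes (37.8%), against 8.09% of all 27025 genes with a window. The longer string TCACGTG, searched on both strands, was present in 13 of the 37 genes (35.1%) and in 4.29% of all genes, and each of these matches overlaps a CACGTG. The 14 genes were Atp6v0b, Atp6v0d1, Atp6v0e, Atp6v1a, Ctsa, Ctsd, Ctsl, Gla, Glb1, Lamp1, Lamtor1, Lamtor4, Lgmn and Mcoln1. These shares describe letters and not bound sites. For 5 of these genes that are described by role below, all with CACGTG upstream of the RefSeq start, the stretch around it is printed 5′ to 3′ on the strand of the gene, with each CACGTG in capitals.
Lamp1, chr8:13159090-13159160, plus strand: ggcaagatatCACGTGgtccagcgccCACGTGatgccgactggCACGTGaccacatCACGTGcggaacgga
Atp6v0b, chr4:117887332-117887375, minus strand: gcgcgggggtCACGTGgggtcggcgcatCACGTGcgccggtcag
Lamtor4, chr5:138255352-138255393, plus strand: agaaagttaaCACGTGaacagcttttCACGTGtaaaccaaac
Lamtor1, chr7:101905759-101905784, plus strand: gccttcctatCACGTGccgcgggtcc
Ctsl, chr13:64370741-64370766, minus strand: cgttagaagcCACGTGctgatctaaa
Lamp1, the gene of an abundant glycoprotein of the lysosomal membrane, held 4 copies in the last 71 bases before its start. Atp6v0b and Lamtor4 held 2 copies each. The Ctsl stretch is upstream of the RefSeq start but inside Ctsl-205, a longer transcript that starts at 64370890 and to which 54.9% of the Ctsl reads were assigned. The windows of Cd63, Sqstm1 and Map1lc3b, the members whose read number passed the test at 48 h, held none.

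The libraries held 178369 to 316546 mRNA reads, of which 903 to 2297 came from the 44 genes, 10774 in all or 0.559% of the mRNA reads. All 8 embryonal carcinoma markers on a fixed list (among them Pou5f1, Sox2 and Lin28a) had reads, and their summed level was 344 to 394 reads per 100,000 mRNA reads in every library. Markers of phagocytes, cells rich in lysosomes, summed to between 0.632 and 3.11 reads per 100,000, with Ptprc, Aif1 and Tyrobp at 0 in all libraries. The MHY 24 library (48 h) stood apart from the others. Among the libraries of 48 h it had the highest share of reads on the 44 genes, and its other mRNA reads had the shortest median tail, 92.3 nt. The main values at 48 h are therefore also given without it, or for MHY 25 by itself. Markers of neurons, the cells that P19 can turn into, summed to 28.1 to 31.4 reads per 100,000 in the DMSO libraries of 48 h and to 22.0 to 23.8 in the MHY libraries, with Dcx at 0, while those of 24 h overlapped (28.8 to 33.4 and 27.6 to 40.4). Their part in the results at 48 h was not tested. Endoderm markers summed to at most 0.642 reads per 100,000, with Sox17, Afp and Ttr at 0. In a bulk sample, fewer cells of a type and less RNA per cell cannot be told apart.

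At each time the 44 genes took a larger share of the mRNA reads in both MHY libraries than in both DMSO libraries. At 24 h the share was 0.473% in DMSO 21 and 0.461% in DMSO 23, and it was 0.625% in MHY 21 and 0.605% in MHY 23. At 48 h it was 0.495% in DMSO 24 and 0.470% in DMSO 25, and it was 0.737% in MHY 24 and 0.594% in MHY 25. The 95% Wilson intervals of these shares, which cover counting error only, did not overlap between the treatments at either time (0.443 to 0.504% in DMSO 21 and 0.571 to 0.643% in MHY 23, for example).

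**Figure D1:**
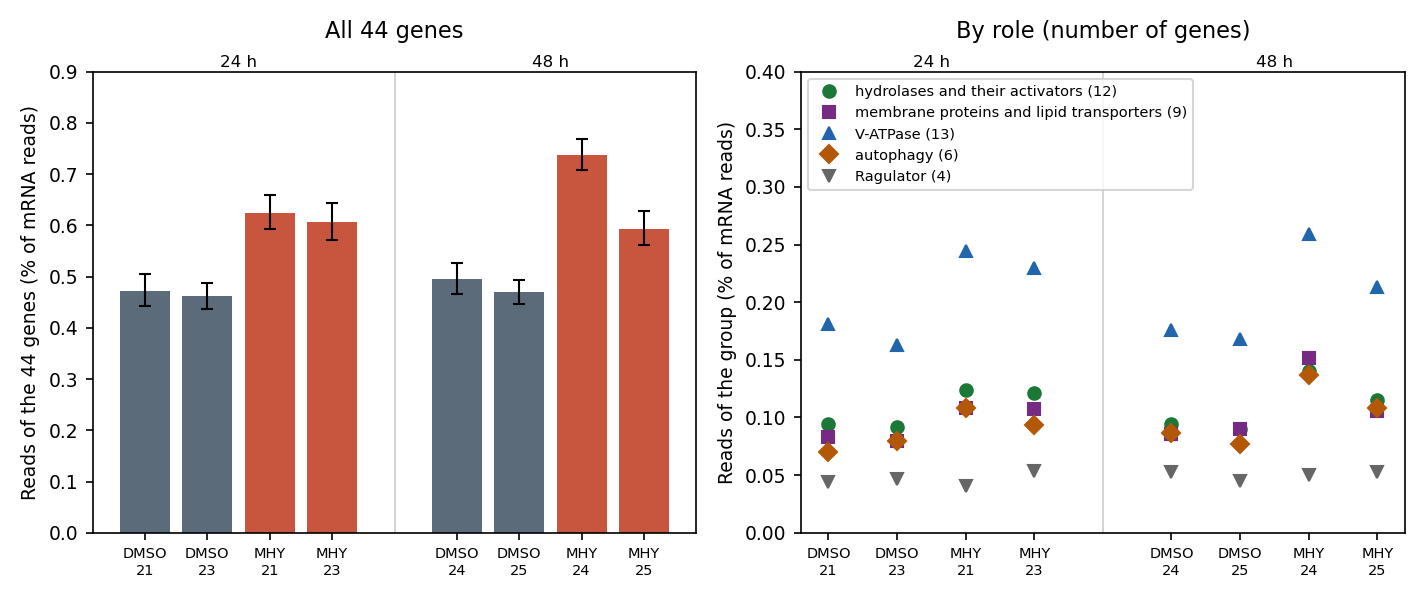
Reads of the 44 genes as a percentage of mRNA reads in each of the 8 libraries (left, bars with 95% Wilson intervals; grey DMSO, red MHY), and the same percentage for each of the 5 role groups (right, 1 point per library). At each time both MHY bars (0.605 and 0.625% at 24 h, 0.594 and 0.737% at 48 h) are above both DMSO bars (0.461 and 0.473%, 0.470 and 0.495%), and the Ragulator points overlap between treatments.

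The mean share was 0.467% ± 0.008 under DMSO and 0.615% ± 0.014 under MHY (SD, n = 2) at 24 h, a ratio of 1.32, and 0.482% ± 0.018 and 0.665% ± 0.102 at 48 h, a ratio of 1.38. With 2 libraries against 2, the two-sided exact permutation test gave p = 0.333 at each time, the smallest value that such a comparison can give. When labels were permuted within each time and the statistic covered both times, the two-sided exact permutation p was 0.0556, again the smallest of 36 arrangements. So neither test could pass 0.05. Each sequencing run held all 4 libraries of a time and none held both times, so levels were not compared between the times. The ratio of MHY to DMSO was 1.37, 1.27 and 1.29 within the 3 runs at 24 h and 1.45 and 1.33 within the 2 runs at 48 h. Without MHY 24 the difference at 48 h was 0.111 percentage points, against 0.183 with it.

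Gene by gene, 36 of the 44 passed the filter on low counts (10 or more reads in at least 2 libraries) and entered the limma fit over 4116 genes. The 8 others were Lamp2, Gla, Glb1, Hexa, Npc1, Ppt1, Scarb2 and Mcoln1. At 24 h none of the 36 passed the test in either direction (limma, Benjamini-Hochberg adjusted p under 0.05), where 0.0729% of all genes did. At an unadjusted p under 0.05 there were 9 members, all higher under MHY, where 4.30% of all genes were in either direction, and the lowest adjusted p was 0.075, for Gabarap. At 48 h 3 members passed, Cd63, Sqstm1 and Map1lc3b, all higher under MHY, or 8.33% of the 36 where 0.413% of all genes were called higher. No member was called lower at 48 h, where 1.17% of all genes were. At an unadjusted p under 0.05 there were 12 members at 48 h, all higher, where 12.4% of all genes were in either direction. The effect of MHY differed between 48 h and 24 h for no member at an adjusted p under 0.05, where 0.34% of all genes were called. At an unadjusted p under 0.05 there were 3 of the 36, Cd63, Laptm4a and Atp6v1a, a share near the 6.58% of all genes.

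Most members lay above the median gene. At 24 h the median log2 change of the 36 was 0.41, where that of all 4116 genes was 0.01. Above 0 were 30 of the 36 and 50.8% of all genes. At 48 h the medians were 0.33 and -0.01, with 27 members and 49.2% of all genes above 0. Ctsa, the highest of the 36 at 24 h (1.10), and Atp6v1h reached 10 reads only in MHY 23 and MHY 24. With no filter on low counts the median of the 44 was 0.38 at each time, with 36 above 0 at 24 h and 33 at 48 h. The medians of all genes were then 0.11 and -0.07. Without MHY 24 the member median at 48 h was 0.29, with 27 of 34 above 0. Both MHY libraries were above both DMSO libraries, in reads per 100,000 mRNA reads, for 21 of the 36 at 24 h, where 17.8% of all genes were. At 48 h this held for 15 members, or 41.7%, where 25.2% of all genes were so placed. The opposite order was seen for 1 member at each time, Lamtor2 at 24 h and Lgmn at 48 h, where 16.6% and 14.4% of all genes were so placed. MHY 25 by itself was above both DMSO libraries of 48 h for 20 members (55.6%), where 37.5% of all genes were. Scaling by total mRNA reads moved the median of all genes at 48 h to 0.10 and that of the members to 0.44, with 29 of the 36 above 0. Over reads with a mapping quality of 10 or more, 31 members entered the fit, their medians were 0.44 at 24 h and 0.39 at 48 h, and 3 were called at 48 h, where 14 genes in all were called higher.

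**Figure D2:**
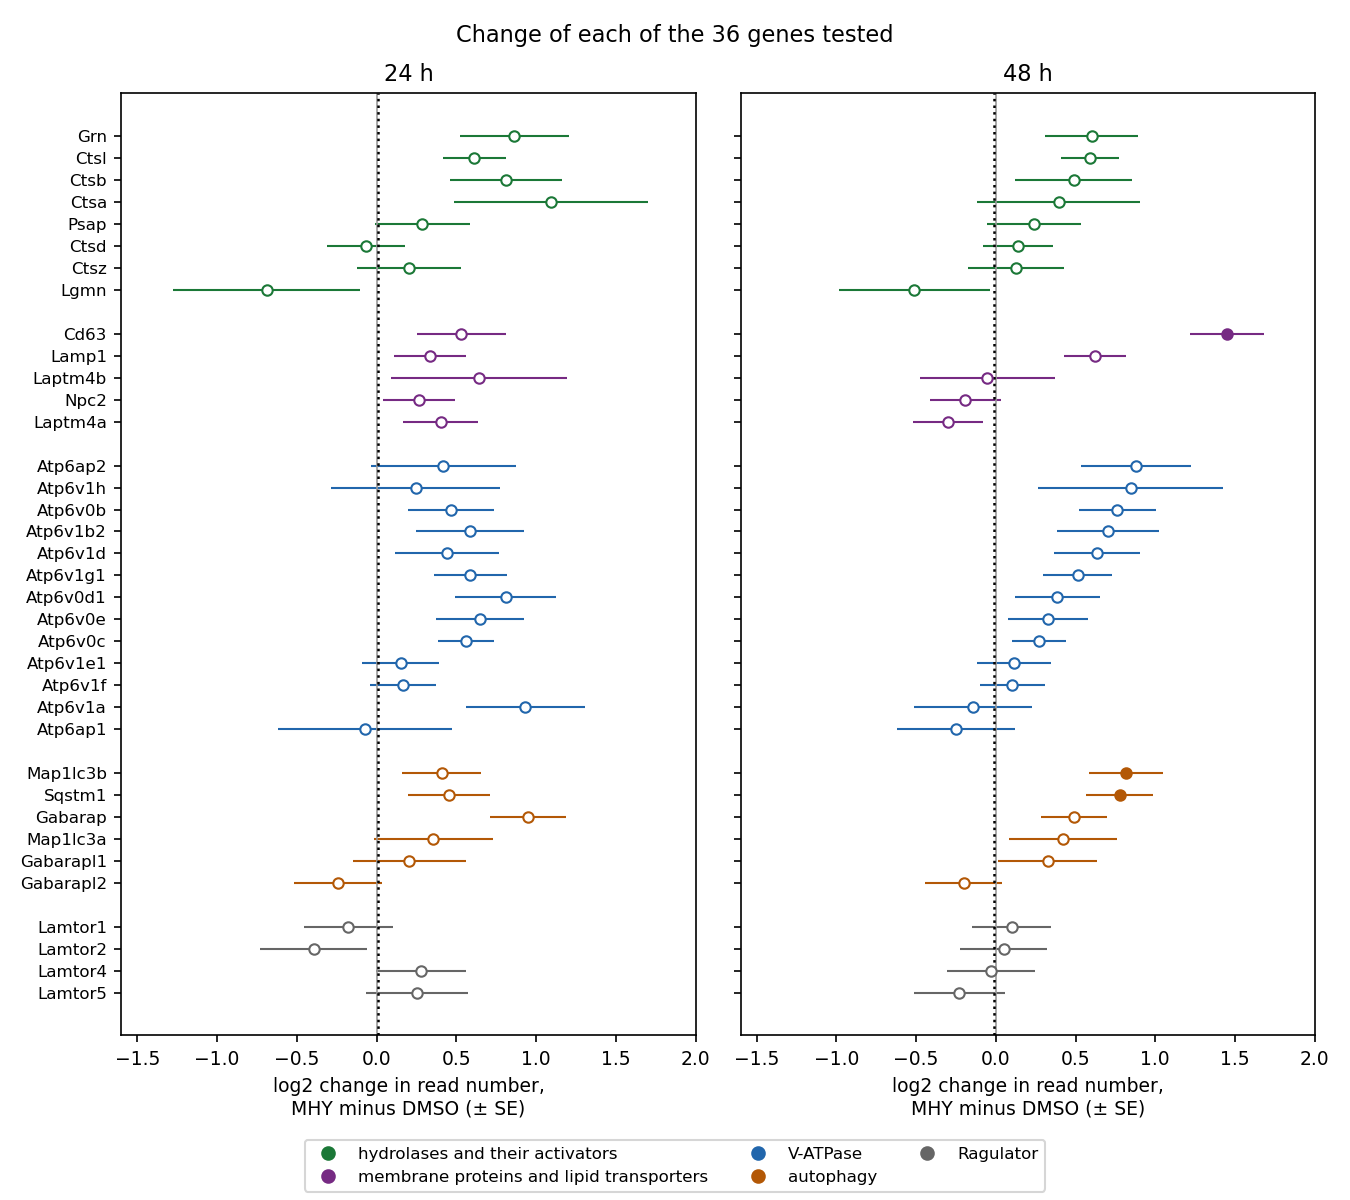
log2 change in read number from DMSO to MHY (± SE, limma) for the 36 genes tested at 24 h (left) and 48 h (right), ordered by role and, within a role, by the value at 48 h. Filled points passed an adjusted p under 0.05 (Cd63, Map1lc3b and Sqstm1 at 48 h), the dotted line is the median of all 4116 genes, and 30 points at 24 h and 27 at 48 h lie above 0.

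Among the autophagy genes, 2 of 6 passed the test at 48 h, where 0.413% of all genes were called higher. Sqstm1 encodes p62, a receptor that binds ubiquitinated cargo and is itself degraded with it (main transcript chr11:50200152-50210827, minus strand, mm10). Its reads per 100,000 mRNA reads were 19.2 in DMSO 24 and 16.1 in DMSO 25, and 35.3 in MHY 24 and 28.5 in MHY 25. At 24 h they were 14.7 and 14.5 in DMSO 21 and 23, and 19.6 and 20.7 in MHY 21 and 23. The treatments did not overlap at either time. The log2 change was 0.78 ± 0.21 (SE) at 48 h, with an adjusted p of 0.0233 (limma), and 0.45 ± 0.25 at 24 h, with an adjusted p of 0.955. With the 48 h libraries alone the adjusted p at 48 h was 0.0546.

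Map1lc3b encodes LC3B, which is coupled to lipid in the growing autophagosome (main transcript chr8:121590361-121598760, plus strand). At 48 h it had 15 reads per 100,000 in DMSO 24 and 12.6 in DMSO 25, and 31.8 in MHY 24 and 19.6 in MHY 25. At 24 h it had 14.1 and 17.8 in the DMSO libraries, and 22.2 and 20.7 in the MHY libraries. Again the MHY values were above the DMSO values at both times, by more at 48 h in MHY 24 than in MHY 25. Its log2 change at 48 h was 0.82 ± 0.23, with an adjusted p of 0.0345 (limma). The Map1lc3b call was lost with barcode confidence of 0.9 or more (adjusted p = 0.147), with no filter on low counts (adjusted p = 0.0654) and with the 48 h libraries alone (adjusted p = 0.0825).

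Gabarap, of the same family of lipid-coupled proteins, was the autophagy gene with the most reads, 451. It had 16.2 and 13.8 reads per 100,000 in DMSO 21 and 23 at 24 h, and 32.0 and 25.2 in MHY 21 and 23. At 48 h the values were 20.6 and 19.3 under DMSO, and 33.4 and 26.2 under MHY. The log2 change was 0.95 ± 0.24 at 24 h (adjusted p = 0.075, limma) and 0.49 ± 0.21 at 48 h (adjusted p = 0.281), so that it missed the threshold at both times although the libraries did not overlap. Its paralog Gabarapl2 was among the members with the lowest values at 48 h, -0.20 ± 0.24, and its libraries overlapped between the treatments at both times. Gabarapl1 and Map1lc3a had positive log2 changes at both times, 0.20 to 0.42, and did not pass the test. As a group the 6 autophagy genes took 0.075% ± 0.007 of mRNA reads under DMSO and 0.101% ± 0.010 under MHY at 24 h, and 0.082% ± 0.006 and 0.122% ± 0.020 at 48 h (SD, n = 2), with 0.108% in MHY 25.

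Of the 36 genes in the fit, the largest log2 change at 48 h was that of Cd63, a tetraspanin of late endosomes, lysosomes and exosomes (main transcript chr10:128909699-128912815, plus strand). At 24 h it had 11.5 reads per 100,000 in DMSO 21, 11.6 in DMSO 23, 16.4 in MHY 21 and 17.4 in MHY 23. At 48 h it had 10.8 in DMSO 24 and 13.6 in DMSO 25, against 51.7 in MHY 24 and 23.4 in MHY 25. Both MHY libraries were above both DMSO libraries at each time, and the MHY libraries of 48 h differed from each other more than either group at 24 h. The log2 change was 0.53 ± 0.28 at 24 h (adjusted p = 0.955) and 1.45 ± 0.23 at 48 h (adjusted p = 1.57e-07, limma). The difference between these effects, 0.92 ± 0.36, did not pass the test (adjusted p = 0.470). Within the sequencing runs the Cd63 ratio of MHY to DMSO was 1.27 to 1.55 at 24 h and 2.97 and 3.18 at 48 h. Without MHY 24 the log2 change at 48 h was 0.87, with an adjusted p of 0.305.

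The calls at 48 h varied with the libraries kept, and leaving out 1 library also left its group with a single one. Without MHY 24 none of the members passed, and Sqstm1 and Map1lc3b had log2 changes of 0.66 (adjusted p = 0.569, limma) and 0.48 (adjusted p = 0.824). Without DMSO 25 only Cd63 passed, and without DMSO 24 Sqstm1 had an adjusted p of 0.0516 and Map1lc3b of 0.0751. The log2 changes of Cd63, Sqstm1 and Map1lc3b were 1.30, 0.87 and 0.91 without DMSO 24, and 1.66, 0.65 and 0.70 without DMSO 25. Without MHY 25 they were 1.90, 0.87 and 1.07. In all these fits the 3 changes kept their positive sign.

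**Figure D3:**
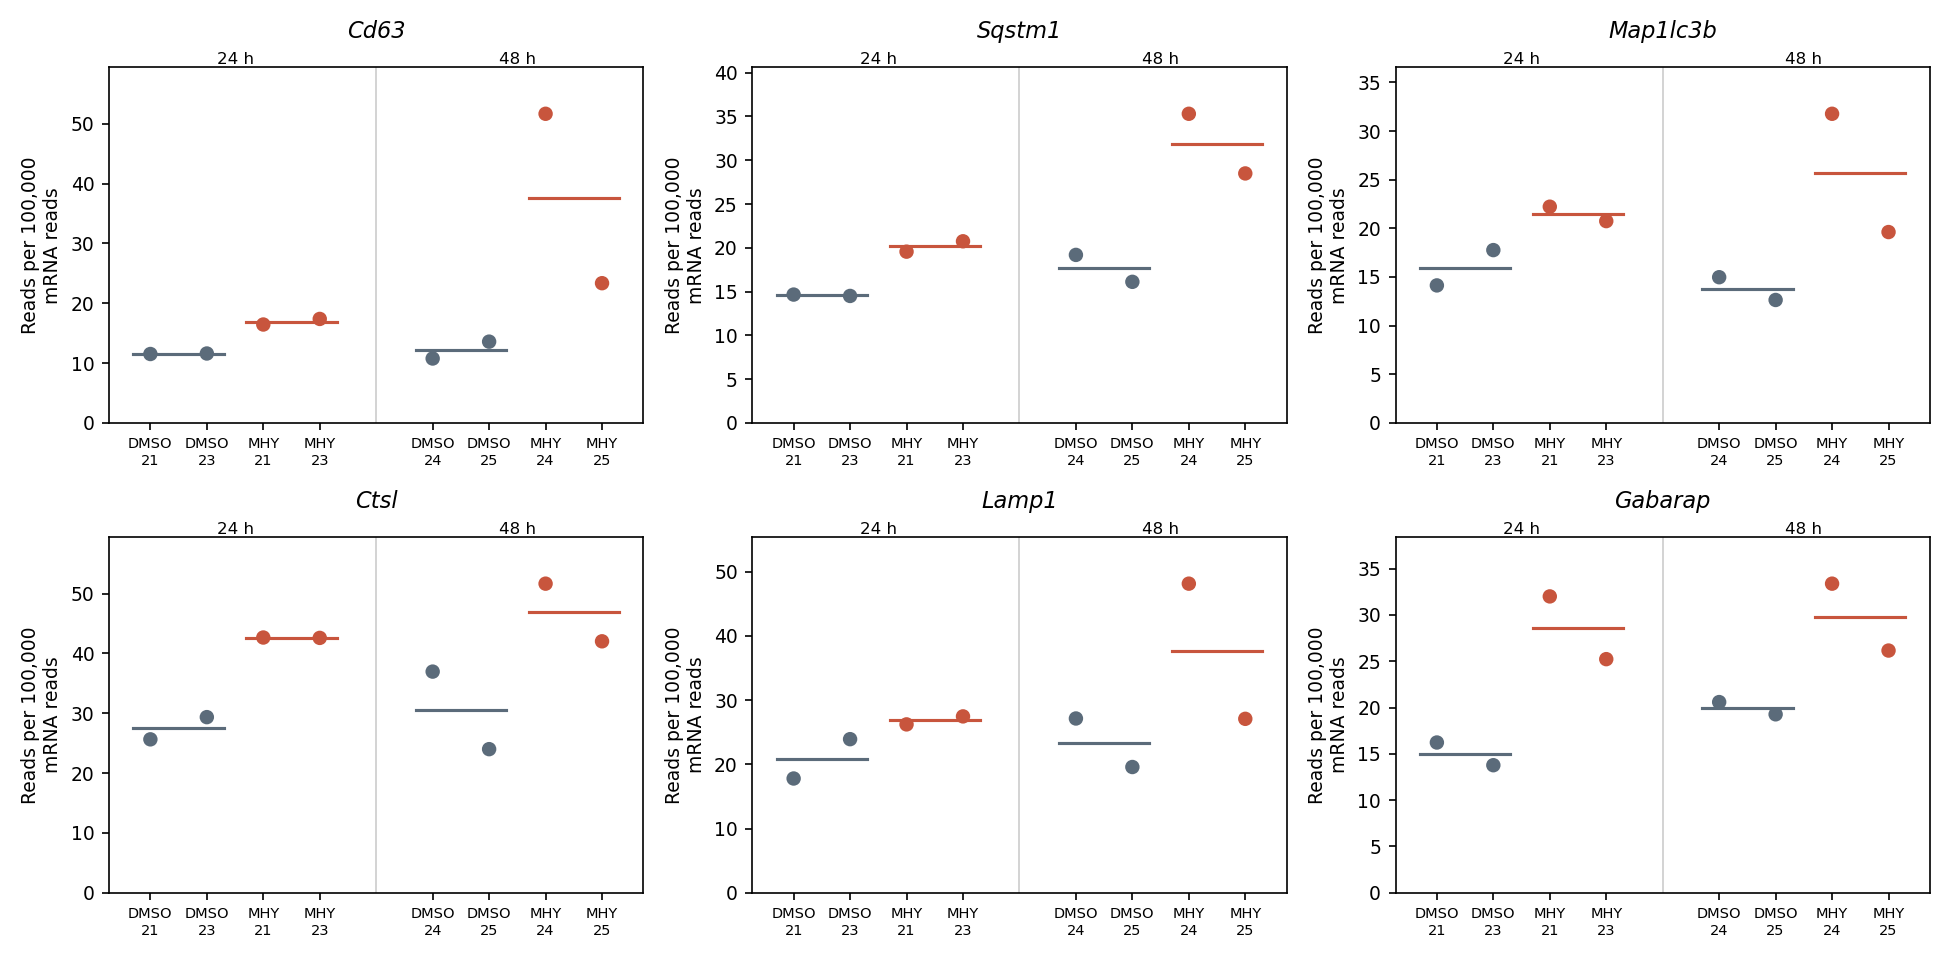
Reads per 100,000 mRNA reads (vertical axis) in each library for the 3 members called at 48 h (Cd63, Sqstm1 and Map1lc3b) and 3 other members with many reads (Ctsl, Lamp1 and Gabarap); points are libraries (grey DMSO, red MHY) and lines are group means. MHY points lie above DMSO points in each panel and time, except that MHY 25 and DMSO 24 are both at 27.1 for Lamp1, and MHY 24 is the highest library of 48 h in each panel.

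The 9 genes of membrane proteins and lipid transporters, Cd63 included, took 0.081% ± 0.002 of mRNA reads under DMSO and 0.108% ± 0.001 under MHY at 24 h, a ratio of 1.32. At 48 h they took 0.088% ± 0.003 and 0.129% ± 0.033, a ratio of 1.47, with 0.106% in MHY 25. Both MHY libraries were above both DMSO libraries at each time. Apart from Cd63, the genes of this role had log2 changes on both sides of 0 at 48 h. Lamp1 had 17.8 and 23.9 reads per 100,000 in the DMSO libraries of 24 h and 26.2 and 27.5 in the MHY libraries. At 48 h it had 27.1 and 19.6 under DMSO, and 48.1 in MHY 24 but 27.1 in MHY 25, so MHY 25 was level with DMSO 24. The log2 change at 48 h was 0.62 ± 0.20, with an adjusted p of 0.074 (limma). Laptm4a, a multispanning protein of endosomes and lysosomes, had the lowest value among members with 100 or more reads at 48 h, -0.30 ± 0.22, after 0.40 ± 0.23 at 24 h. Its 48 h libraries overlapped (18.7 and 24.3 under DMSO, 16.7 and 22.9 under MHY). Npc2, which hands cholesterol from the lysosomal lumen to Npc1, had 0.27 ± 0.23 and -0.19 ± 0.22, and its libraries overlapped at both times. Of the 5 genes of this role in the fit, 5 were above 0 at 24 h and 2 at 48 h, where 50.8% and 49.2% of all genes were.

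Among the hydrolases and their activators, 8 of 12 entered the fit and none passed the test. At an unadjusted p under 0.05 there were 3 at 24 h (Ctsb, Ctsl and Grn) and 2 at 48 h (Ctsl and Grn), all higher under MHY. Of all genes, 4.30% and 12.4% were so in either direction. Ctsl, the cysteine protease cathepsin L, had the most reads, 708. It had 25.6 and 29.4 reads per 100,000 under DMSO and 42.7 and 42.6 under MHY at 24 h, and 37.0 and 24.0 under DMSO and 51.7 and 42 under MHY at 48 h. The treatments did not overlap at either time. The log2 changes were 0.61 ± 0.20 (adjusted p = 0.538) and 0.59 ± 0.18 (adjusted p = 0.0615, limma). Its reads were split between Ctsl-205 (54.9%) and Ctsl-201 (45.1%), and over 95% of them had a mapping quality under 10, so where they belong is uncertain. Grn, the precursor of the granulins, had log2 changes of 0.86 ± 0.34 and 0.60 ± 0.29, with no overlap at either time, and also missed the threshold. Lgmn, an asparaginyl endopeptidase, was the lowest of the 36 at both times, with -0.69 ± 0.59 and -0.51 ± 0.48 from 78 reads in all. As a group the hydrolases took 0.093% ± 0.002 of mRNA reads under DMSO and 0.123% ± 0.002 under MHY at 24 h, and 0.092% ± 0.003 and 0.127% ± 0.018 at 48 h, with 0.115% in MHY 25.

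All 13 V-ATPase genes entered the fit, and none passed the test. Of these, 12 had a log2 change above 0 at 24 h and 11 at 48 h, where 50.8% and 49.2% of all genes did. Atp6v1h entered only through MHY 23 and MHY 24, with 13 and 18 reads. At an unadjusted p under 0.05 there were 5 V-ATPase genes at each time, all higher under MHY, with Atp6v1g1 at both. Of all genes, 4.30% were so in either direction at 24 h and 12.4% at 48 h. The group took 0.172% ± 0.013 of mRNA reads under DMSO and 0.237% ± 0.010 under MHY at 24 h, a ratio of 1.38, and 0.172% ± 0.005 and 0.236% ± 0.033 at 48 h, a ratio of 1.37, with 0.213% in MHY 25. Atp6v0c, which forms the ring that carries protons through the membrane, had the most reads of all members, 935. It had 48.7 and 36.6 reads per 100,000 under DMSO and 69.8 and 53.3 under MHY at 24 h, and 44.9 and 36.3 against 57.8 and 45.8 at 48 h. The groups did not overlap, by a margin under 1 read per 100,000 at 48 h. Its log2 changes were 0.56 ± 0.17 (adjusted p = 0.519) and 0.27 ± 0.17 (adjusted p = 0.545, limma). Atp6v0b, another subunit of the membrane sector, had 13.1 and 12.0 reads per 100,000 under DMSO and 27.6 and 17.7 under MHY at 48 h, a log2 change of 0.76 ± 0.24 (adjusted p = 0.074). Atp6v1g1, of the peripheral stalk, had 0.59 ± 0.23 and 0.51 ± 0.22, and its 48 h libraries overlapped (12.6 and 24.0 against 32.4 and 23.4). Atp6v1f, also with many reads (515), had smaller values of 0.17 ± 0.21 and 0.10 ± 0.20. Of the accessory proteins, Atp6ap2 had 0.88 ± 0.34 at 48 h (adjusted p = 0.203) and Atp6ap1 -0.25 ± 0.37, from 129 and 101 reads.

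The 4 Ragulator genes were the role whose share did not separate the treatments at either time. They took 0.045% ± 0.002 of mRNA reads under DMSO and 0.047% ± 0.009 under MHY at 24 h, and 0.048% ± 0.006 and 0.051% ± 0.002 at 48 h, ratios of 1.04 and 1.06. Lamtor1, the lipid-anchored subunit that holds the complex on the membrane, had log2 changes of -0.18 ± 0.28 and 0.10 ± 0.25. Lamtor4 had 0.28 ± 0.28 and -0.03 ± 0.27. Lamtor5 had 0.25 ± 0.32 and -0.23 ± 0.29, and all its reads had a mapping quality under 10. Whether the Ragulator differed from the other roles was not tested.

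Read against the promoter letters above, members with CACGTG in the window had a median log2 change of 0.47 at 24 h and 0.33 at 48 h (11 genes in the fit), and members without it 0.29 and 0.24 (19 genes). Among all other genes, those with the letters had medians of 0.03 and 0.04 (455 genes), and those without 0.00 and -0.02 (2827 genes). With TCACGTG the member medians were 0.40 and 0.23 (10 genes), and without it 0.34 and 0.26 (20 genes), so the order turned at 48 h. At 24 h, 8 of the 11 members with CACGTG were above 0 (72.7%), and 16 of the 19 without it (84.2%). At 48 h these were 8 (72.7%) and 14 (73.7%). No test was made of these values, and the 3 called members were among those without the letters.

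Other genes of the pathway were taken from lists that exclude the 44. Of 44 other lysosomal enzymes and membrane proteins, 6 had enough reads for the fit and none passed the test at either time (0 at an unadjusted p under 0.05), with medians of -0.14 and 0.00. Of 8 other V-ATPase genes 1 entered the fit, with log2 changes of 0.46 and 0.70, and did not pass. Of 37 other autophagy genes 11 entered it, with median log2 changes of 0.00 at 24 h and 0.06 at 48 h. Bnip3, a mitochondrial receptor for autophagy that also responds to low oxygen, fell at 48 h by 0.99 ± 0.23 on the log2 scale (adjusted p = 0.00248, limma), where 1.17% of all genes were called lower. Its paralog Bnip3l had -0.70 ± 0.25 (adjusted p = 0.133), and these were the 2 of the 11 at an unadjusted p under 0.05 at 48 h, where 12.4% of all genes were. Bnip3 was the only gene of these lists that passed, and it fell from 25.3 and 25.9 reads per 100,000 in the DMSO libraries to 11.6 in MHY 24 and 17.7 in MHY 25. Of 23 genes of the TFEB family and of mTORC1 on the lysosome, 9 entered the fit and none passed (0 at 24 h and 1 at 48 h at an unadjusted p under 0.05), with medians of 0.54 at 24 h, where 8 of 9 were above 0, and 0.15 at 48 h, where 6 were. Tfe3 had log2 changes of 0.95 ± 0.56 and 0.43 ± 0.41. Tfeb itself had 4 reads in all. Together the genes of these lists took 0.290% ± 0.001 of mRNA reads under DMSO and 0.318% ± 0.019 under MHY at 24 h, and 0.289% ± 0.011 and 0.316% ± 0.019 at 48 h, with 0.302% in MHY 25 and ratios of 1.10 and 1.09.

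Tails of the 44 genes were close in length to those of other genes. Over the 42 genes with 30 or more reads, the median of the per-gene median tails was 104.8 nt, and that of 5800 other genes with as many reads was 104.9 nt. The shortest belonged to Atp6v1d, a stalk subunit of the V-ATPase, with 81.4 nt, and the longest to Atp6v1h with 132.2 nt. There were 10 members below the lower quartile of the other genes (96.0 nt) and 6 above the upper quartile (115.4 nt). Gabarap (90.7 nt), Atp6v1f (91.8 nt) and Atp6v1g1 (93.8 nt) were short among the well-read members, and Psap, the precursor of the saposins that help to degrade sphingolipids, was long at 123.3 nt. None of the 212 Psap reads had a tail under 30 nt. On each of its transcripts 95% or more of the reads had a mapping quality under 10, so where they belong is uncertain.

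**Figure D4:**
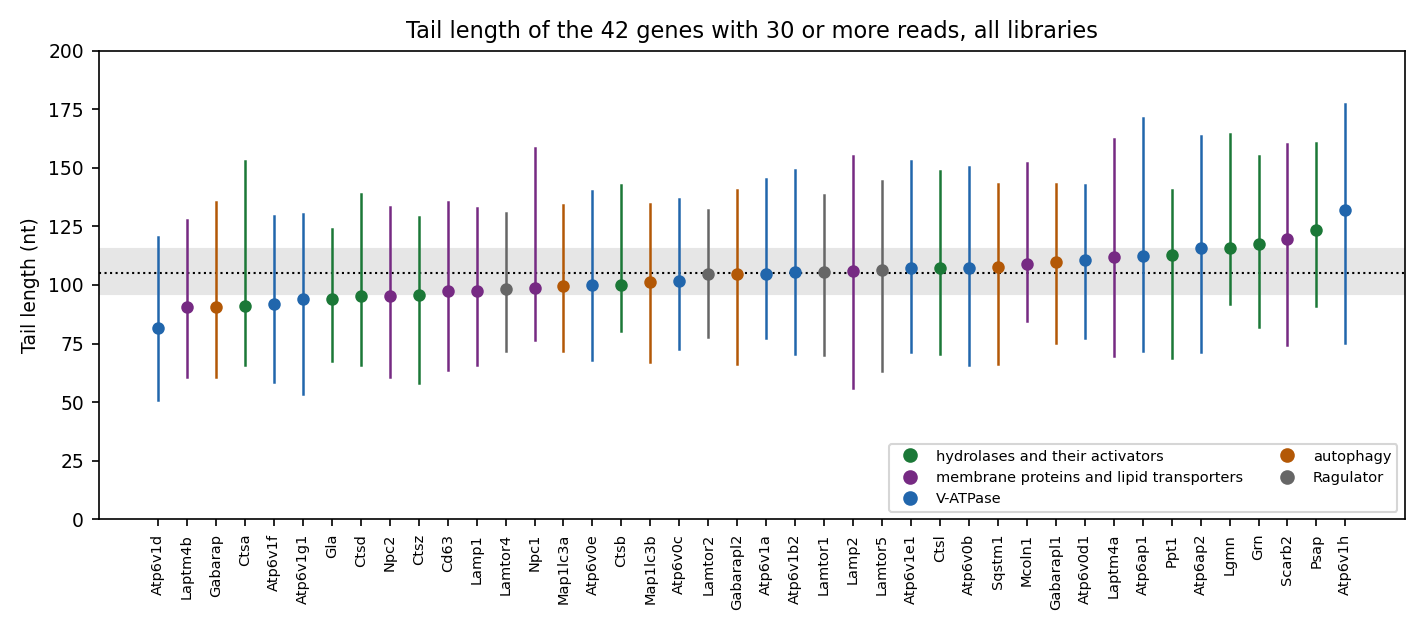
Median tail (points, nt) and interquartile range over reads (vertical lines) of the 42 members with 30 or more reads, all libraries together, coloured by role and ordered by the median. The grey band is the interquartile range of the medians of 5800 other genes, 96.0 to 115.4 nt, and the dotted line their median of 104.9 nt; the members run from 81.4 nt (Atp6v1d) to 132.2 nt (Atp6v1h).

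Pooled over reads rather than genes, the tails of the 44 genes were longer than those of other mRNA reads in every library. Their median was 103.4 and 106.8 nt in DMSO 21 and 23, and 106.6 and 107.6 nt in MHY 21 and 23, while other mRNA reads had 100.7, 102.5, 100.1 and 101.5 nt in the same order. At 48 h the medians were 98.8 and 99.6 nt in DMSO 24 and 25, and 98.5 and 100.5 nt in MHY 24 and 25, while other reads had 96.8, 99.3, 92.3 and 98.2 nt. The difference was 0.27 to 6.5 nt, above 0 in 8 of 8 libraries, with a mean of 3.80 nt (two-sided exact sign-flip permutation test, p = 0.00781, the smallest it can give). It depended on the ribosomal protein mRNAs among the other reads. With ribosomal protein reads left out of the other reads, the mean difference was 0.30 nt, with 4 of 8 libraries above 0 (exact permutation p = 0.688).

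**Figure D5:**
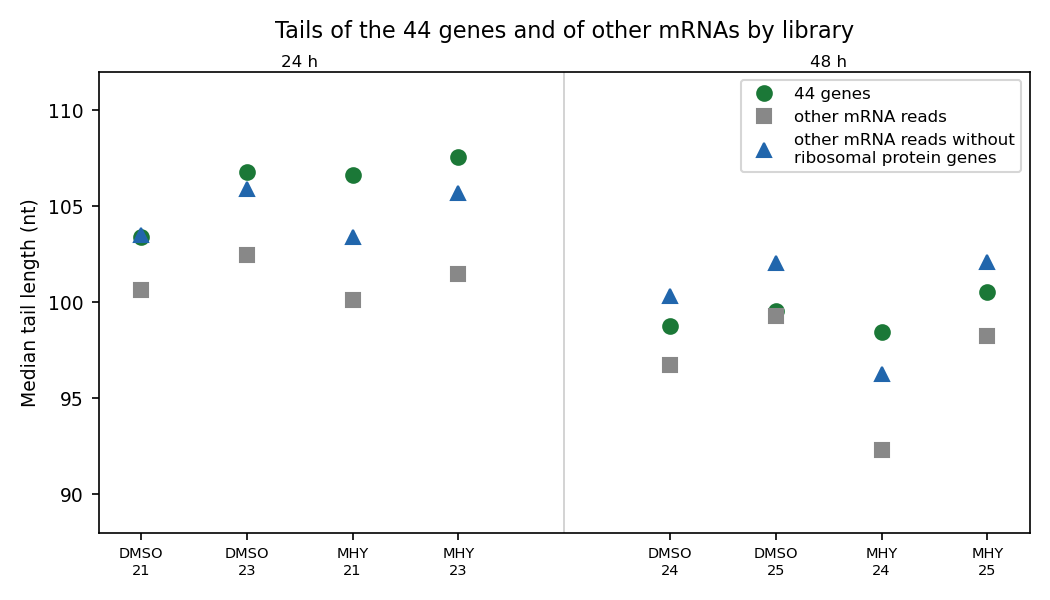
Median poly(A) tail (nt, on an axis that does not start at 0) in each library of the reads of the 44 genes (circles), of other mRNA reads (squares) and of other mRNA reads without ribosomal protein genes (triangles). Circles lie above squares in 8 of 8 libraries and above triangles in 4 of 8, and MHY 24 has the lowest square of 48 h, 92.3 nt.

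Between treatments the median tail of the 44 genes overlapped between libraries at both times. The difference of MHY from DMSO was 2.0 nt at 24 h, from 105.1 ± 2.4 to 107.1 ± 0.7 nt (SD, n = 2), with overlapping libraries (exact permutation p = 0.667), and 0.34 nt at 48 h, from 99.2 ± 0.6 to 99.5 ± 1.5 nt (exact permutation p = 1.0). At 24 h the libraries were separated with barcode confidence of 0.9 or more (3.62 nt) and without the 3 members with most reads (2.76 nt), and the value was -0.40 nt over reads with a mapping quality of 10 or more. The gap between the 44 genes and other mRNA reads was larger in both MHY than in both DMSO libraries of each time. It was 2.75 and 4.29 nt in DMSO 21 and 23 and 6.5 and 6.12 nt in MHY 21 and 23, and 2.00 and 0.27 nt in DMSO 24 and 25 and 6.13 and 2.30 nt in MHY 24 and 25. With the labels permuted within each time, the two-sided exact permutation p over both times was 0.0556, the smallest possible. The size of the difference varied with the setting. At 24 h it was 2.79 nt over all reads, 0.23 nt over reads with a mapping quality of 10 or more (exact permutation p = 1.0) and -2.24 nt in the second of the 3 runs. At 48 h it was 3.08 nt, 1.16 nt without MHY 24 and 4.99 nt without MHY 25. The median tail of other mRNA reads differed between MHY and DMSO by -0.79 nt at 24 h and -2.75 nt at 48 h. That of the 44 genes differed by 2.0 and 0.34 nt.

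Tails under 30 nt, a length associated with decay, made up 3.32% and 2.12% of the reads of the 44 genes in DMSO 21 and 23 and 2.35% and 2.41% in MHY 21 and 23. At 48 h they made up 3.78% and 3.23% in DMSO 24 and 25 and 4.14% and 3.30% in MHY 24 and 25. The libraries overlapped at both times (exact permutation p = 1.0 at 24 h and 0.667 at 48 h), with a mean difference of -0.35 percentage points at 24 h and 0.22 at 48 h. Other settings separated them (exact permutation p = 0.333, the smallest possible). For tails under 20 nt the difference was -0.25 at 24 h and 0.33 at 48 h. At 48 h it was 0.68 over reads with a mapping quality of 10 or more and 0.84 without the 3 members with most reads. Among other mRNA reads the same share was 2.53% ± 0.27 under DMSO and 2.2% ± 0.05 under MHY at 24 h, and 2.71% ± 0.21 and 3.92% ± 0.77 at 48 h. Tails of 30 to 90 nt made up 38.6% and 37.3% in the DMSO libraries and 36.7% and 34.6% in the MHY libraries at 24 h, and 39.4% and 39.6% against 39.4% and 38.4% at 48 h. Both MHY libraries were below both DMSO libraries at each time, with a mean difference of -2.33 percentage points at 24 h and -0.64 at 48 h (exact permutation p = 0.333 at each time, the smallest possible). In the second run of 24 h the difference was 1.76 percentage points in the other direction. Leaving out 1 library gave -3.37 to -1.30 at 24 h and -1.12 to -0.16 at 48 h, the last without MHY 25. Without the 3 members with most reads the value at 48 h was -0.16, and with barcode confidence of 0.9 or more it was -0.40, with overlapping libraries in both (exact permutation p = 1.0). Over reads with a mapping quality of 10 or more the values were -1.27 at 24 h and -0.85 at 48 h, and tails of 40 to 80 nt differed by -2.40 at 24 h, all with overlapping libraries (exact permutation p = 0.667). Within the first run of 24 h the value was -4.94. Among other mRNA reads the same class differed by 0.87 and 0.97 percentage points, higher under MHY, with overlapping libraries at both times.

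Per gene, 28 members had 10 or more reads in each library and entered the limma fit of median tails over 1949 genes. None passed the test at 24 h, where 0% of all genes did, and 1 member of 28 was at an unadjusted p under 0.05, where 3.95% of all genes were. This was Lamtor5, with 77.7 and 99.3 nt in DMSO 21 and 23 and 118.1 and 130.0 nt in MHY 21 and 23, a fitted difference of 33.8 ± 15.7 nt (adjusted p = 0.996). None passed at 48 h, where 0.872% of all genes did, all of them shorter under MHY, and again 1 member was at an unadjusted p under 0.05, where 8.36% of all genes were. The difference of the effects between 48 h and 24 h was called for 0% of all genes and for no member (0 at an unadjusted p under 0.05). The member medians were 1.90 nt at 24 h and 0.12 nt at 48 h, where those of all genes were -0.71 and -3.02 nt.

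Cd63 had the largest tail difference of the 28 at 48 h, and it is the member with an unadjusted p under 0.05. Its median tail was 68.5 and 85.7 nt in DMSO 24 and 25, and 108.1 and 94.5 nt in MHY 24 and 25, with no overlap. The fitted difference was 25.2 ± 10.3 nt (SE), with an unadjusted p of 0.0193 and an adjusted p of 0.489 (limma). At 24 h its libraries overlapped, with 90.2 and 94.1 nt under DMSO and 79.9 and 107.0 nt under MHY. Lamp1 had 86.1 and 96.0 nt under DMSO and 103.4 and 106.4 nt under MHY at 48 h, a difference of 13 ± 8.6 nt (adjusted p = 0.779). Lamtor4 (16.3 ± 12.8 nt) and Lamtor5 (14.1 ± 13.7 nt) had values in the same direction, and Atp6v1b2, a catalytic-sector subunit of the V-ATPase, had -17.4 ± 15.3 nt. None of these passed. Of the other members called for read number, Sqstm1 had tail differences of 11.4 ± 12.3 nt at 24 h and 8.43 ± 9.69 nt at 48 h, and Map1lc3b had -5.57 ± 11 and -9.27 ± 10.1 nt.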

How the data were processed

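P19 libraries from 4 groups (DMSO and MHY, 24 h and 48 h) were compared. Base calling by the authors used Guppy. Reads were mapped to GENCODE transcripts of the mm10 assembly by minimap2 (version 2.20 in the submitters' processing notes), tails were estimated by Nanopolish, and libraries were told apart by their barcodes through Deeplexicon. The deposited table gives 1 alignment per line, with the tail in nt and no normalization, the barcode confidence as a fraction and the mapping quality as a score. It holds no counts per gene. Lines with the Nanopolish tag PASS and of the mRNA class were kept, once per read and transcript, and counted per gene, leaving 1926118 reads. Mitochondrial, pseudogene, repeat and spike-in lines were left out. Reads counted here are not divided by length, since 1 read is 1 molecule. The 44 genes and the other lists were chosen with earlier results of these data known.

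Counts (10 or more in at least 2 libraries) were scaled by median-ratio size factors and tested with limma 3.58.1 (voom) in R 4.3.3, in a model of the 4 groups, with Benjamini-Hochberg adjustment over all 4116 genes. Median tails of genes with 10 or more reads in every library were tested with limma, weighted by reads. Values for the 44 genes as a set were compared by exact permutation over libraries. The 2 libraries of each group differed beyond counting error (chi-square per degree of freedom 1.19 to 1.56). They are biological replicates per the study's methods, and p-values measure only the spread between these libraries. The scripts were tested on simulated data. Genes were named by rule: every called member, the 6 with most reads, the 5 largest rises, falls (of members with 100 or more reads) and tail changes at 48 h, and the member with most reads of each role; others named are extremes or exceptions, picked after their values were seen. Alternatives covered mapping quality of 10 or more, barcode confidence of 0.9 or more, scaling, filters, weights, tail bounds, single libraries and runs, and a replicate block. The difference in tail between the 44 genes and other reads by treatment, the permutation over both times, the count from MHY 25 by itself and each read counted once per gene were chosen after seeing the data.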

Additional observations from a re-analysis of the deposited data

How the results depend on the processing

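Every alternative kept the share of reads on the 44 genes higher under MHY, by 0.109 to 0.209 percentage points at 24 h and 0.111 to 0.255 at 48 h; leaving out 1 library gave 0.139 to 0.158 and 0.111 to 0.255. Members called higher at 48 h (3) numbered 1 with the 48 h libraries alone, 6 when scaled by total mRNA reads and 0 to 7 when 1 library was left out. At 24 h, 1 member (Gabarap) was called with barcode confidence of 0.9 or more and with the 24 h libraries alone. Over all genes, 0.0729% were called in either direction in the main fit of 24 h, and 5 genes were higher with the 24 h libraries alone. Over all genes, 3 higher at 24 h became 1 with mapping quality of 10 or more, 5 with the time point alone and 0 to 4 with 1 library left out. The 17 higher and 48 lower at 48 h became 10 and 29 (barcode confidence), 8 and 22 (time point alone), 32 and 28 (total reads) and 31 and 116 (no filter), and 30 lower with mapping quality of 10 or more. Leaving out 1 library gave 6 to 42 higher and 10 to 98 lower. Shorter tails at 48 h (17 genes) were 0 with the time point alone or with no weights and 0 to 41 with 1 library left out; longer tails (0) were 1 with barcode confidence of 0.9 or more and 0 to 1 with 1 library left out.

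The tail values of the 44 genes turned direction under several settings. The difference in median tail was -0.40 nt with mapping quality of 10 or more and -2.66 nt in the second run at 24 h, and -0.71 nt without the 3 members with most reads at 48 h. Leaving out 1 library gave 0.31 to 3.68 nt at 24 h and -0.70 to 1.36 nt at 48 h. For tails under 30 nt it gave -0.95 to 0.25 percentage points at 24 h and -0.20 to 0.63 at 48 h, with 0.49 in the third run at 24 h and -0.37 in the first at 48 h. For tails of 30 to 90 nt the second run at 24 h gave 1.76, and for the gap between the 44 genes and other reads -2.24 nt. The gap over all libraries, 3.80 nt, was 0.30 nt (exact permutation p = 0.688) without ribosomal protein reads and -1.03 nt (exact permutation p = 0.406) as a median over genes with 30 or more reads. The cause was not tested, except where fewer samples or other reads make up the setting.

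Libraries with the same number did not deviate together (correlation of deviations over genes 0.038 at 24 h and 0.024 at 48 h), so the numbers are not treated as pairs. A replicate block left 3 members called at 48 h and 0 at 24 h, and 20 genes higher and 56 lower at 48 h. With 2 libraries per group, permutation tests of MHY against DMSO could not pass 0.05, and depth limits the members with few reads, such as Lgmn, whose log2 change at 48 h had a standard error of 0.48 against 0.17 for Atp6v0c.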
